A study of Homo sapiens with 3 samples.

Results

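Many human protein-coding genes lie so close to a neighbour that less than 1 kb separates them. The peaks described here are those of histone H4 lysine 12 lactylation (H4K12la) that fall on such short gaps. A member is a peak that overlaps, by at least 1 bp, a gap of 1 to 1000 bp between adjacent, non-overlapping protein-coding genes on chromosomes 1 to 22. By the RefSeq annotation of GRCh38.p14, 2023 of 16460 neighbouring gene pairs have such a gap, and 3705 genes take part in them, so some genes belong to a pair on each side. H4K12la was profiled by CUT&Tag, in which an antibody tethers a transposase to the marked chromatin, in untreated, established renal cancer cell lines: 786-O, without functional VHL, and Caki-1, whose VHL is functional. The lines therefore differ in VHL and in their whole origin, and neither carried an added agent or transgene. 3 libraries were used, replicate 2 of 786-O and replicates 1 and 2 of Caki-1, and the labels do not say whether the Caki-1 replicates were separate cultures. With 3 libraries the smallest p that a permutation between the lines can give is 0.333, so values are given per library and no test between lines was made.

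The lists held 62777 peaks in 786-O, 60760 in Caki-1 replicate 1 and 67839 in Caki-1 replicate 2. Of these, 1023, 1035 and 1077 lay on a short gap, in the same order, or 1.66%, 1.74% and 1.62% of the peaks on chromosomes 1 to 22. The sources used here do not state the read depth, and the number of peaks in a library cannot be told apart from it. Of renal epithelial marker genes, CDH16 had a peak within 1 kb of a gene end in all 3 libraries, PAX8 in both Caki-1 libraries only, and PAX2, LHX1 and EMX2 in none. PTPRC, CD3E, CD79A, PECAM1 and ALB, markers of blood, endothelial and liver cells, had no peak in any library, whereas CD14 and the fibroblast gene COL1A1 had one in each.

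Genes that lie head to head and are transcribed away from each other share a bidirectional promoter, a short stretch of usually CpG-rich DNA from which RNA polymerase II starts on both strands. Such pairs are known to be frequent among housekeeping genes of DNA repair, mitochondria and metabolism. In pairs that point the same way the gap holds the end of the upstream gene and the start of the downstream gene, and in convergent pairs it holds 2 far ends and no annotated start. Acetylation and lactylation of histone tails are both found at active promoters, and the orientation of a pair sets how many annotated starts its gap adjoins. Strands were known for both genes of 1460 pairs, of which 748 were divergent, 377 pointed the same way and 335 were convergent; 563 pairs without a strand for both genes were given no orientation.

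The DNA of the most strongly marked pairs shows what these gaps hold. The following promoter windows, from RefSeq on GRCh38.p14, run from 250 bases before to 50 bases after an annotated start and are printed 5′ to 3′ on the strand of the gene. They belong to 3 of the pairs whose lowest percentile rank over the 3 libraries was highest, and to HSPD1/HSPE1, a classical bidirectional promoter. Capitals mark every match, on either strand, to 9 promoter motifs given as plain letters below. The VPS35 and ORC6 windows overlap and together cover the 480 bp gap between these genes.
VPS35, chr16:46689129-46689428, minus strand: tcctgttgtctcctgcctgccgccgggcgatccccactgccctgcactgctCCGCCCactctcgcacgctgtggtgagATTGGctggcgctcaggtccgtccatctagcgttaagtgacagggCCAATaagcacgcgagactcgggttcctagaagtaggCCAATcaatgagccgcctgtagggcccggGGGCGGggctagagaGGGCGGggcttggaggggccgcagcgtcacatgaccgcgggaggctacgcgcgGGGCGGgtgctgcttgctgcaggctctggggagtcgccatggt
ORC6, chr16:46689409-46689708, plus strand: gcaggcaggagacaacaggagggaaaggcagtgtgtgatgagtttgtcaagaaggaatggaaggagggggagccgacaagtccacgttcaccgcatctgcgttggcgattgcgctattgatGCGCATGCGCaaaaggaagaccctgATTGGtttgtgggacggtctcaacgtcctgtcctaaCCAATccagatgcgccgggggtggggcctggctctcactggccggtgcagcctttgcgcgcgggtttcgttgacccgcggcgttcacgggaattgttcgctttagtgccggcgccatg
TPR, chr1:186375204-186375503, minus strand: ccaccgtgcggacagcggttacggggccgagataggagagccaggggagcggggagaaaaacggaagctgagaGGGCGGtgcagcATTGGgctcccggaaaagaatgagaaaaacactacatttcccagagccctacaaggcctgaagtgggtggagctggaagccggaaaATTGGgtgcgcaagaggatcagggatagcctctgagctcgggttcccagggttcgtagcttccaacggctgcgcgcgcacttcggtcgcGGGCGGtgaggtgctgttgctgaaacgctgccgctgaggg
ODR4, chr1:186375588-186375887, plus strand: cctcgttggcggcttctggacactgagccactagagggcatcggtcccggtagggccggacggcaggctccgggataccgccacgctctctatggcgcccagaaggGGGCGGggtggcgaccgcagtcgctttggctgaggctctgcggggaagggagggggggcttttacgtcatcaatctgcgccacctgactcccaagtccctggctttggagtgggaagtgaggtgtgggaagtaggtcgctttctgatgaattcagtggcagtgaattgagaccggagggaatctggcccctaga
PPIP5K2, chr5:103120051-103120350, plus strand: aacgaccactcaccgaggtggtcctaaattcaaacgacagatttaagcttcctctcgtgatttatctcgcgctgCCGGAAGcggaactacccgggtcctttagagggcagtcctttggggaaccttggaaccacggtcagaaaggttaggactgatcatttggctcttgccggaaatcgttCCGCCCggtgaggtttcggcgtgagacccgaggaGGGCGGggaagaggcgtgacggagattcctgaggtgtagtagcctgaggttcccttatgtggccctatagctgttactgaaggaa
HSPE1, chr2:197500129-197500428, plus strand: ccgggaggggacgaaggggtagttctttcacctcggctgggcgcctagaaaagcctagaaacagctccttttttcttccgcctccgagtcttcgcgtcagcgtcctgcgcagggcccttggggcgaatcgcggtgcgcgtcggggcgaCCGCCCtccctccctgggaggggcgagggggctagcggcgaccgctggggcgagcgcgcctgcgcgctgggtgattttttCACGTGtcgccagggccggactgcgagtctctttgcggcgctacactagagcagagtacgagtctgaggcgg
The PPIP5K2 window holds all 162 bp of its gap with GIN1, and the HSPE1 window all 104 bp of its gap with HSPD1. The windows of VPS35, ORC6, TPR, ODR4, PPIP5K2 and HSPE1 held 7, 4, 4, 1, 3 and 2 matches. VPS35 had 3 CCAAT boxes and 4 GC boxes, the letters GGGCGG to which SP1 and related factors bind, and ORC6 had 2 CCAAT boxes and a pair of overlapping matches to the NRF1 motif. No window of these 6 held a TATA box, by the letters TATAAA. Their G+C content ran from 54.7% at PPIP5K2 to 67.0% at VPS35 and HSPE1.

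An H4K12la peak overlapped the gap of about every other close pair. A gap peak was present at 1018 pairs in 786-O (50.3%, 95% exact binomial interval 48.1 to 52.5), at 1032 in Caki-1 replicate 1 (51.0%, 48.8 to 53.2) and at 1075 in Caki-1 replicate 2 (53.1%, 50.9 to 55.3). A 1 kb window at either end of any protein-coding gene on these chromosomes held a peak in 25.9%, 27.5% and 29.1% of 38252 cases, in the same order. All 3 libraries had a gap peak at 883 pairs (43.6%, 41.5 to 45.8), against 21.1% of windows at gene ends, and no library had one at 832 pairs (41.1%). The intervals cover counting error over pairs and not the spread between cultures. Gap and peak were joined nearly one to one. Only 5, 3 and 2 gaps held 2 peaks, and no peak spanned 2 gaps. UBQLN4/LAMTOR2, with a gap of 983 bp, was the pair with 2 peaks in every library.

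Marking differed between the orientations in every library. Divergent pairs had a gap peak in 82.5% of cases in 786-O, 82.5% in Caki-1 replicate 1 and 85.3% in Caki-1 replicate 2. Pairs pointing the same way had one in 41.6%, 43.2% and 46.2%, and convergent pairs in 3.28% in each of the 3 libraries. The order was the same in every library, and the intervals of the 3 orientations did not overlap in any of them. In all 3 libraries at once, 564 of 748 divergent pairs (75.4%, 72.2 to 78.5), 117 of 377 same-direction pairs (31.0%, 26.4 to 36.0) and 4 of 335 convergent pairs (1.19%, 0.33 to 3.03) were marked. The pairs of unknown orientation lay between, at 198 of 563 (35.2%).

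Because gaps differ in length, windows of a fixed 1 kb at the gap centre were also compared, beside windows at starts and far ends of genes with no other gene within 5 kb. In all 3 libraries a peak lay in 78.9% (75.8 to 81.8) of divergent windows, 34.8% (30.0 to 39.8) of same-direction windows and 2.39% (1.04 to 4.65) of convergent windows. Lone starts held one in 38.0% (37.0 to 39.0) of 9383 windows and lone far ends in 0.810% (0.633 to 1.02) of 8764. Divergent gaps were thus marked more often than lone starts, and convergent gaps rarely but more often than lone far ends; the intervals of same-direction gaps and lone starts overlapped. A divergent window holds 2 starts and a convergent window 2 far ends, whereas a lone window holds 1 start or 1 far end. The part this has in either difference was not tested.

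**Figure D1:**
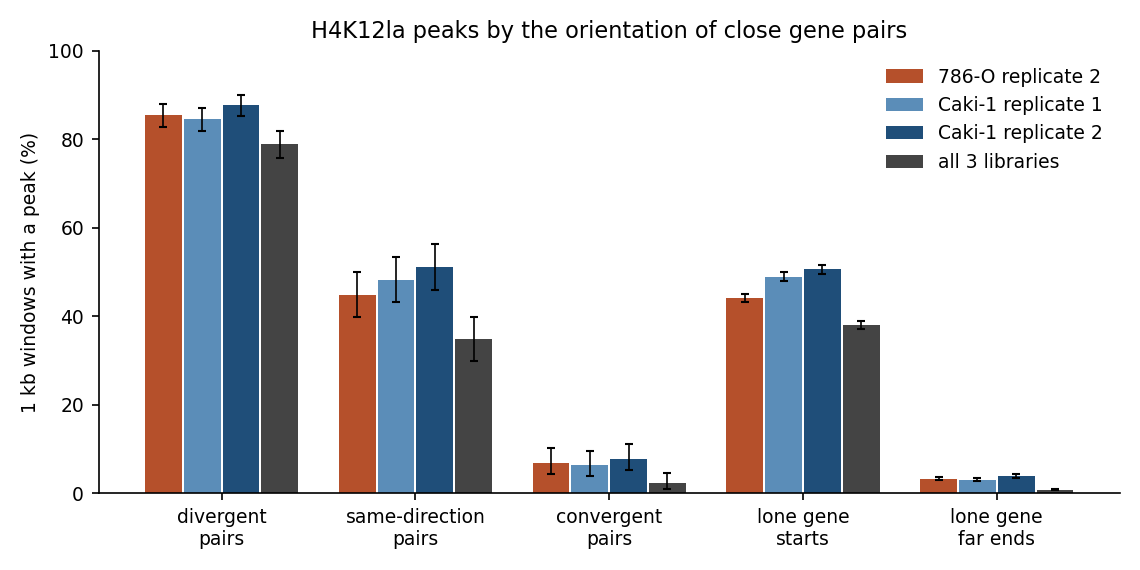
Share of 1 kb windows that held an H4K12la peak, for windows at the gap centre of divergent, same-direction and convergent pairs and at starts and far ends of genes with no other gene within 5 kb. Bars are the 3 libraries and all 3 at once, error bars are 95% exact binomial intervals, and the all-3 shares fall from 78.9% at divergent gaps to 2.39% at convergent gaps.

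The share of marked pairs is given by gap length, and no test of a relation was made. Among divergent pairs, the share marked in all 3 libraries was 62.3% (38 of 61) at gaps of 1 to 50 bp, 64.6% at 51 to 100 bp, 75.5% at 101 to 200 bp, 81.0% at 201 to 300 bp and 83.5% at 301 to 500 bp. It reached 90.6% (29 of 32) at 501 to 750 bp and was 72.7% (16 of 22) at 751 to 1000 bp, with intervals from 75.0 to 98.0 and from 49.8 to 89.3 that overlap. Even genes whose annotated starts lay within 50 bp of each other were therefore marked more often than lone starts were in the 1 kb windows, though a peak is wider than such a gap. Same-direction pairs ranged from 0 of 8 at 1 to 50 bp to 37.5% at 301 to 500 bp, and convergent pairs did not exceed 3.33% at any length. Just outside the limit, at gaps of 1001 to 2000 bp, 60.0% of 45 divergent, 34.1% of 299 same-direction and 3.01% of 166 convergent pairs had a gap peak in all 3 libraries.
At the limit itself, the widest gaps inside were the 997 bp gaps of BUD23/STX1A and LSR/USF2, with no peak, and GSDME/OSBPL3, with a peak of score 49 in Caki-1 replicate 2 alone. The narrowest gap outside, the 1001 bp of SLC26A6/CELSR3, had a peak in each library, and the next, the 1003 bp gaps of DPCD/FBXW4 and FICD/SART3, had none.

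**Figure D2:**
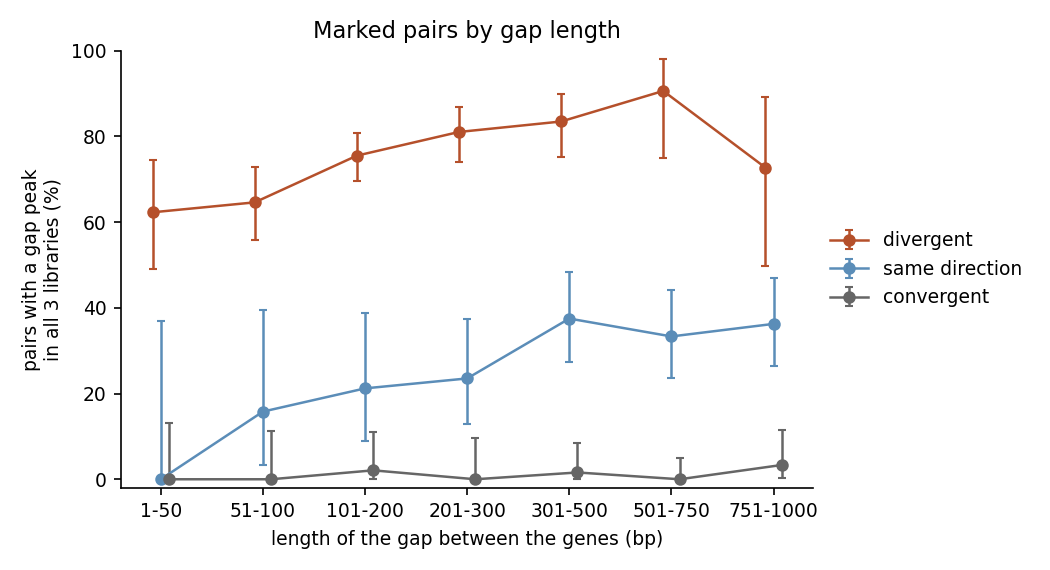
Share of pairs with a gap peak in all 3 libraries by the length of the gap in bp, for each orientation; points are shares and error bars are 95% exact binomial intervals. Divergent pairs lie above same-direction pairs at each length, and convergent pairs stay at or below 3.33%.

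Most peaks on divergent gaps straddled both starts. These gaps, at a median of 170 bp, were shorter than the median peak on them. Of divergent pairs with a gap peak, 84.1%, 83.8% and 86.4% had a peak covering the whole gap, in 786-O and Caki-1 replicates 1 and 2. It reached into both genes in 83.6%, 83.5% and 86.4%. The median length inside the lower gene was 305, 318 and 382.5 bp, and inside the higher gene 315, 278 and 364 bp. Median widths of divergent gap peaks were 887, 864 and 977 bp, against 497, 520 and 576 bp over the whole lists. The summit, given for 786-O and Caki-1 replicate 1, lay at a median of 79.5 and 82 bp from the gap centre. It fell inside the gap at 58.7% and 56.4% of divergent pairs. That share was 24.1% and 29.6% at gaps of 1 to 100 bp and 86.2% and 80.0% at 301 to 500 bp. A longer gap takes in more summits at the same distance from its centre, so this rise cannot be told apart from gap length itself. In narrow gaps the summit lay just inside one of the genes, at a median of 45 and 26.5 bp past the gap edge.

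In same-direction pairs the peak belonged to one end of the gap. It covered the start of the downstream gene in 87.9%, 87.7% and 84.5% of marked pairs, and the far end of the upstream gene in 28.0%, 25.2% and 33.9%. Summits lay nearer to the downstream start in 87.3% and 87.7% of pairs, at a median of 51 and 50 bp before it. Only 21.7%, 19.6% and 24.1% of these gaps were covered whole. The gaps were also longer, with a median of 475 bp over all same-direction pairs against 170 bp over all divergent pairs. The part of gap length in the difference in whole cover was not tested. Between 786-O and Caki-1 replicate 1, summits on the same gap were a median of 58 bp apart over 911 pairs.

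**Figure D3:**
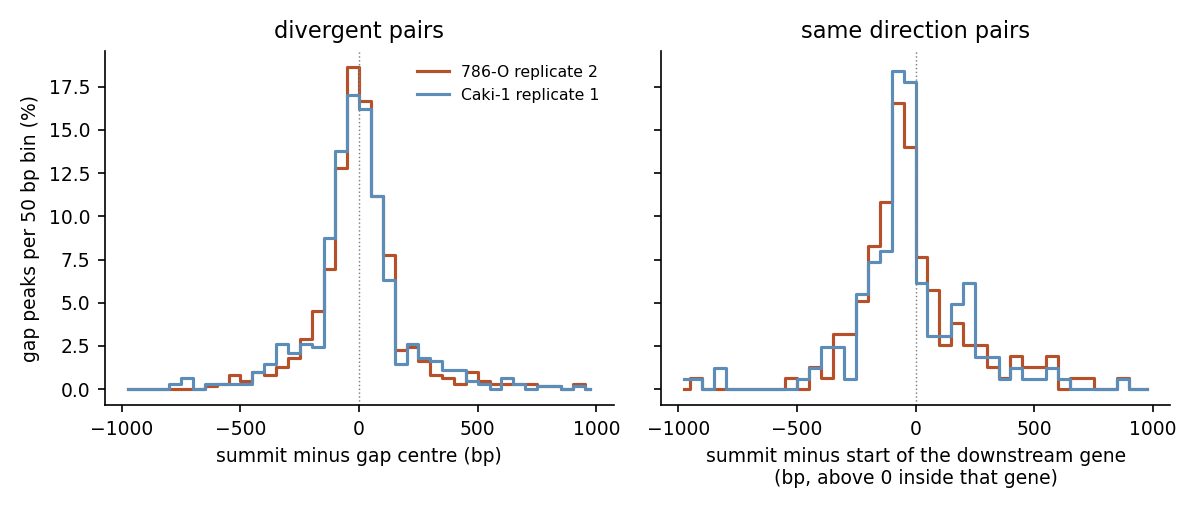
Position of the summit of gap peaks in 786-O replicate 2 and Caki-1 replicate 1, in 50 bp bins, relative to the gap centre of divergent pairs and to the start of the downstream gene of same-direction pairs (above 0 is inside that gene). The share of marked pairs peaks at the centre of divergent gaps and just before the start in same-direction pairs, with medians of -51 and -50 bp.

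Gap peaks were also among the strongest of their lists. The strength column of the lists is the authors' own value per peak, a signal in 786-O and Caki-1 replicate 1 and a score in Caki-1 replicate 2. It is compared only as a percentile rank within a list. Signals and scores of named pairs are printed as deposited and are not comparable between libraries. The median rank of the strongest peak per gap reached 90.5 (786-O), 86.7 (Caki-1 replicate 1) and 88.0 (Caki-1 replicate 2), where the median over a list is 50 by construction. Divergent pairs had medians of 92.1, 88.5 and 90.0, same-direction pairs 86.4, 77.9 and 79.4, and the 11 convergent gap peaks of each library 71.5, 80.9 and 66.5. Short gaps held 16.2%, 12.8% and 12.5% of the peaks in the top 1% of the lists (102 of 631, 75 of 585 and 85 of 679), although they held under 2% of all peaks. In windows of 1 kb, divergent gaps had median ranks of 92.1, 87.7 and 89.6 and lone starts 85.5, 82.2 and 85.6, and the peaks were also wider at divergent gaps, with medians of 871, 862 and 966 bp against 747, 777.5 and 880 bp. The order was the same in each library, while same-direction windows, at 85.5, 77.9 and 78.4, did not exceed lone starts in any.

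**Figure D4:**
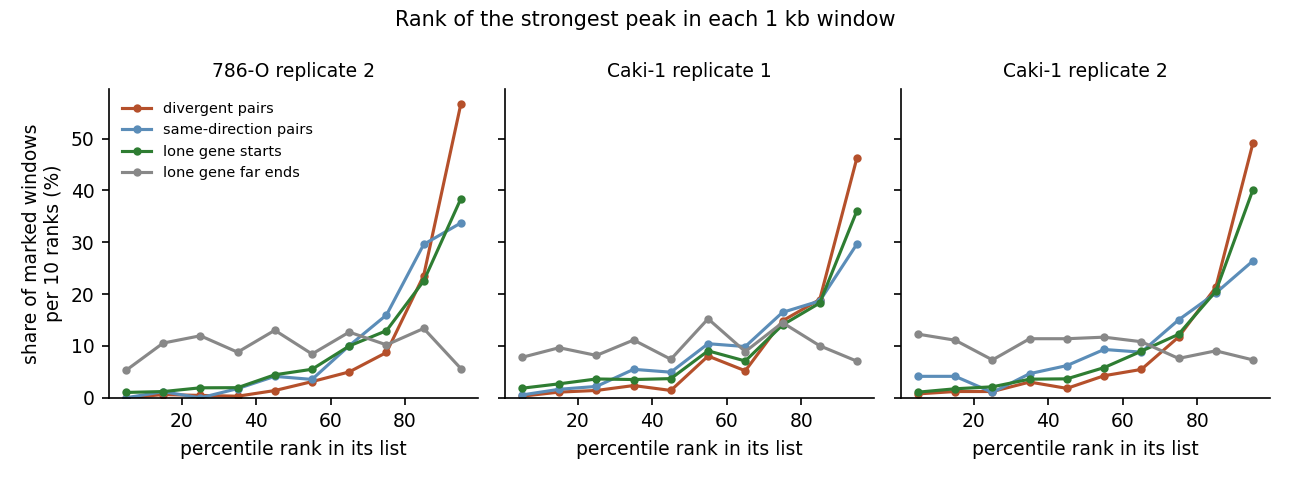
Percentile rank, within its own list, of the strongest peak in each marked 1 kb window, as the share of windows per 10 ranks in each library. At divergent gaps 56.7%, 46.3% and 49.2% of the peaks are in the top 10% of the list, at lone starts 38.4%, 36.1% and 40.2%, and peaks at lone far ends are spread over all ranks.

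The top of the ranking was led by a gap between a sorting gene and a replication gene. VPS35, a subunit of the retromer that recycles membrane proteins from endosomes, and ORC6, of the origin recognition complex, were separated by 480 bp at chr16:46689179-46689658 on GRCh38. The peak was 1522 bp wide with a signal of 164 in 786-O, 1485 bp with a signal of 164 in Caki-1 replicate 1 and 1549 bp with a score of 1051 in Caki-1 replicate 2. Its percentile ranks were 99.98, 99.98 and 99.99, the highest lowest-rank of all pairs.
TPR/ODR4, with a 584 bp gap on chromosome 1, joins a nucleoporin of the nuclear basket to ODR4, whose counterpart in Caenorhabditis elegans acts in the trafficking of odorant receptors. Its gap lies at chr1:186375254-186375837, and it had signals of 125 and 149 plus a score of 653. PDCD10/SERPINI1, a gene of cerebral cavernous malformations next to that of neuroserpin, had an 828 bp gap at chr3:167734893-167735720, signals of 119 and 113 plus a score of 696. Both pairs ranked at 99.83 or above in every library.
GIN1/PPIP5K2, in which PPIP5K2 is a kinase that makes inositol pyrophosphates, had signals of 126 and 109 plus a score of 618 over a 162 bp gap at chr5:103120139-103120300. Its summit was at the same base in 786-O and Caki-1 replicate 1. SF3B6/FAM228B, with SF3B6 a subunit of the splicing factor SF3b, had signals of 136 and 105 plus a score of 508.

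The other 5 of the top 10 pairs were on chromosome 8, which holds 62 of the 2023 pairs, none with a known strand. They were SLC25A32/DCAF13, whose first gene encodes a mitochondrial folate carrier, ATAD2/NTAQ1, whose first gene is a bromodomain ATPase, VCPIP1/C8orf44-SGK3, NUDCD1/ENY2, of which ENY2 is a subunit of the deubiquitinating module of SAGA, and MTERF3/PTDSS1, with a phosphatidylserine synthase. Their signals ran from 144 to 154 in 786-O and from 105 to 129 in Caki-1 replicate 1, and their scores from 461 to 615 in Caki-1 replicate 2. Chromosome 8 held 9 of the top 50 pairs, and its gap peaks had median ranks of 96.6, 95.8 and 96.4, whereas all its peaks had 48.3, 50.1 and 47.7. Gap peaks of chromosome 7 had medians of 96.6, 97.0 and 95.4, those of chromosome 5 had 94.2, 97.1 and 97.8, and those of chromosome 10 had 97.0, 95.5 and 93.4. Chromosome 6 was lowest in Caki-1, with gap peaks at 62.7 in replicate 1 and 76.9 in replicate 2 against 91.6 in 786-O; all its peaks had medians of 33.7, 48.7 and 44.4 in these lists, in that order. Ranks of gap peaks thus differed between chromosomes within a library, and in Caki-1 replicate 1 the low values of chromosome 6 were shared with its other peaks. The share of pairs marked in all 3 libraries ran from 27.5% of 211 pairs on chromosome 19 to 76.5% of 17 pairs on chromosome 18.

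After the top 10, the highest divergent pairs were SKA2/PRR11, LSM5/AVL9 and ORMDL1/PMS1. SKA2, a kinetochore protein, and PRR11 had signals of 109 and 175 plus a score of 536. LSM5, part of the LSM ring that binds U6 snRNA, had signals of 142 and 115 with AVL9 and a score of 437. ORMDL1, a regulator of sphingolipid synthesis, and PMS1, a mismatch repair gene, lay 110 bp apart with signals of 123 and 102 plus a score of 437. All 3 pairs ranked at 99.66 or above in every library.
The highest same-direction pairs were CYCS/SPMIP4, with the gene of cytochrome c, SPEGNB/GMPPA, whose second gene acts in GDP-mannose metabolism, and PSMG1/BRWD1, with a proteasome assembly chaperone. Their lowest ranks were 98.21, 98.16 and 98.03.
The 4 convergent pairs with a peak in all 3 libraries were TUBG2/PLEKHH3, FXYD3/LGI4, EXTL1/SLC30A2 and MOV10/RHOC. TUBG2, a gamma-tubulin gene, and PLEKHH3 had signals of 32 and 35 plus a score of 136. MOV10, an RNA helicase gene, and RHOC, a small GTPase gene, had signals of 58 and 54 but a score of 33, with ranks of 94.82, 95.14 and 28.76. Their lowest ranks ran from 28.76 to 74.92, below those of the leading pairs of the other orientations.
The widest gap peaks were at LRRC41/UQCRH in 786-O (2440 bp), MTERF3/PTDSS1 in Caki-1 replicate 1 (2395 bp) and NAA50/ATP6V1A in Caki-1 replicate 2 (2489 bp). LRRC41/UQCRH, whose second gene encodes a subunit of respiratory complex III, was covered by 2440 and 2328 bp in 786-O and Caki-1 replicate 1 but by a peak of 435 bp in Caki-1 replicate 2.

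Pairs known for their shared promoters were also counted. Of 30 pairs named in the textbook list, 16 met the gap rule, and by the strands used here 11 were divergent and 5 of unknown orientation. All 3 libraries had a gap peak at 12 of the 16 (75.0%). Of the 11 divergent ones 9 were so marked, beside 75.4% of all divergent pairs. HSPD1/HSPE1, the genes of the mitochondrial chaperonin and its partner, had signals of 140 and 93 plus a score of 296, given here and below for 786-O, Caki-1 replicate 1 and Caki-1 replicate 2. GART/SON, of purine synthesis and splicing, had 118, 82 and a score of 256, and NPAT/ATM, of histone gene transcription and the DNA damage response, 105, 57 and a score of 383. TAP1/PSMB9, of antigen processing, had 59, 25 and a score of 83, with a rank of 95.13 in 786-O and of 62.66 and 74.31 in Caki-1. This pair lies on chromosome 6, whose gap peaks had median ranks of 91.6, 62.7 and 76.9 in the same order, so its difference is not particular to it.
COL4A1/COL4A2, the basement membrane collagen genes with a 126 bp gap at chr13:110307158-110307283, had no gap peak in any library. Their paralogs COL4A4/COL4A3, with a 135 bp gap, had none in 786-O and weak ones in Caki-1, with signal 16 and score 49 at ranks of 29.02 and 51.77. SURF1/SURF2 had a gap peak in Caki-1 replicate 2 alone, at a rank of 28.76.

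Shares of marked pairs are given by gene list, with the divergent members beside them. Of 29 pairs with a gene of the respiratory chain or ATP synthase, 22 had a gap peak in all 3 libraries (75.9%, 56.5 to 89.7), against 43.6% of all pairs. All 16 divergent pairs of that list were among them, where 75.4% of all divergent pairs were marked. The highest was KIN/ATP5F1C, with signals of 87 and 98 plus a score of 464; CCDC127/SDHA, with the flavoprotein of complex II, had 103, 84 and a score of 303; WDR77/ATP5PB had 78, 70 and a score of 258. NDUFA13/YJEFN3, NDUFB10/RPS2 and NDUFB9/MTSS1 had no gap peak in any library.
Of 34 pairs with a mitochondrial ribosomal protein gene, 22 were marked in all 3 libraries (64.7%), and 14 of the 17 divergent ones were, led by PSMA2/MRPL32, which is also a proteasome pair, with signals of 81 and 114 plus a score of 403. Of 66 pairs with a DNA replication or repair gene, 41 were (62.1%, 49.3 to 73.8), with 32 of the 39 divergent ones. ORMDL1/PMS1 and MBD4/IFT122, with a glycosylase of base excision repair, followed VPS35/ORC6 in that list. MBD4/IFT122 had signals of 81 and 62 plus a score of 248. AEBP1/POLD2, ATRIP/SHISA5 and BRCA2/N4BP2L1 had none, and the last 2 of these pairs meet at far ends.
Chaperone pairs were marked in all 3 libraries at 13 of 21, and at 8 of the 9 divergent ones. They included TBCCD1/DNAJB11 and THAP5/DNAJB9, with HSP40 genes of the endoplasmic reticulum and signals of 75 and 69 and of 66 and 83.

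Other lists lay near or below the share of all pairs. Proteasome pairs were marked in all 3 libraries at 8 of 19 and those of aminoacyl-tRNA synthetases at 6 of 13, but in each list all 6 divergent pairs were. KARS1/TERF2IP, a lysyl-tRNA synthetase gene beside a shelterin gene, had signals of 67 and 81 plus a score of 330. The counts were 20 of 43 for ZNF genes and 10 of 25 for vesicle sorting and Rab genes. Cytosolic ribosomal protein pairs had 11 of 30 (36.7%, 19.9 to 56.1), led by RPL7/RDH10 with signals of 139 and 107 plus a score of 326, and 7 of 12 divergent ones.
Replication-dependent histone pairs had 5 of 20 (25.0%, 8.66 to 49.1), and 3 of their 11 divergent pairs. These genes are near-identical copies, so reads may not be assigned to one of them, and their values are uncertain. H3C1/H4C1 had signals of 43 and 24 plus a score of 54, at ranks of 87.21, 59.84 and 56.30. Gap peaks of its chromosome, 6, had median ranks of 91.6, 62.7 and 76.9 in the same order. None of the 7 pairs with a keratin or olfactory receptor gene had a gap peak in any library, which allows a share of up to 41.0%.
Pairs with genes of clear cell renal carcinoma and hypoxia had 6 of 12. BAP1/PHF7, with the tumour suppressor gene BAP1, had signals of 82 and 36 plus a score of 165, whereas CA9/TPM2, at the far ends of the carbonic anhydrase gene CA9 and of TPM2, had none. Writers, erasers and readers of histone acylation had 7 of 19. They included BRD8/KIF20A, with a bromodomain gene and signals of 56 and 58, and SIRT5/NOL7, with the mitochondrial deacylase SIRT5 and signals of 100 and 43. SIRT5 and NOL7 point the same way, so their gap holds a far end as well as a start. The summit lay in NOL7 in 786-O and in SIRT5 in Caki-1 replicate 1. On chromosome 6, where gap peaks had lower ranks in Caki-1, this pair ranked at 99.51 in 786-O and at 90.06 and 92.98 in Caki-1. BCKDK/KAT8, with the H4K16 acetyltransferase KAT8, had signals of 52 and 46 over a gap of 23 bp. ACSS2/GSS, of unknown orientation, and HDAC1/MARCKSL1, which meet at far ends, had none. The lists are unequal in orientation and were not tested against each other.

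**Figure D5:**
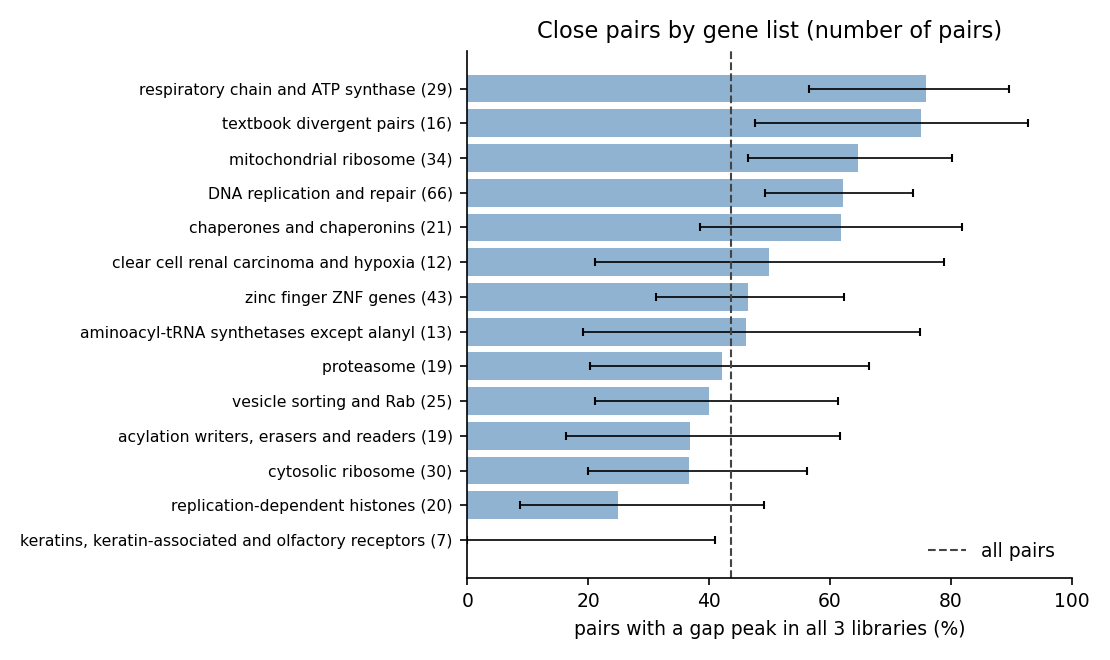
Share of close pairs with a gap peak in all 3 libraries for pairs with a gene of each of 14 lists, with the number of pairs in brackets and 95% exact binomial intervals. The dashed line is the share of all 2023 pairs, 43.6%; the respiratory chain list lies at 75.9% and the keratin and olfactory receptor list at 0.

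Marked pairs were largely common to the lines. Of pairs marked in 786-O, 89.5% were marked in Caki-1 replicate 1 and 91.4% in replicate 2; of pairs marked in the Caki-1 replicates, 88.3% and 86.5% were marked in 786-O. Between the Caki-1 replicates the shares were 94.6% and 90.8%. Sharing is not particular to close pairs. In 1 kb windows, 3566 lone starts were marked in all 3 libraries, of 4139 marked in 786-O and 4590 and 4751 in the Caki-1 replicates. At gap centres these counts were 937, of 1078, 1087 and 1145. Among divergent pairs 786-O shared 92.7% and 95.1% with the Caki-1 libraries, among same-direction pairs 81.5% and 82.2%. Divergent gap peaks present in all 3 libraries were also the stronger ones, with median ranks of 93.4, 89.3 and 91.5 against 74.9, 72.3 and 69.1 for those that were not. Besides the 564 divergent pairs marked throughout and the 73 without any gap peak, 38 were marked in Caki-1 alone, by both replicates, and 22 in 786-O alone. The like counts at gene ends, without a distance to other peaks, were not made. Ranks of gap peaks had a Spearman correlation across pairs of 0.633 (911 pairs) and 0.599 (930) between 786-O and the Caki-1 replicates and of 0.797 (976) between these replicates; pairs are not independent replicates.

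Few pairs were marked in 1 line only. A gap peak in 786-O with no peak within 5 kb in either Caki-1 library was found at 22 pairs (1.09%, 0.683 to 1.64), where windows at gene ends gave 1.47%. The converse was found at 49 pairs (2.42%, 1.80 to 3.19), where gene ends gave 2.7%. Both shares are near those of gene ends in general, but they are taken over all pairs and all windows, marked or not. Of the 1018 pairs marked in 786-O, 22 met this rule, against 561 of 9920 marked windows at gene ends. The 49 were among 976 pairs marked in both Caki-1 libraries. The like count at gene ends was 1034, of at most 10503 windows marked in both. Line-only marking was thus rarer among marked gaps than among marked gene ends. By orientation, 11 of the 22 and 16 of the 49 pairs were divergent, 6 and 15 pointed the same way, and 2 and 0 were convergent. 786-O is represented by 1 library, and with replicate 2 of Caki-1 left out both counts were 63, and with replicate 1 left out they were 44 and 72.
The pairs highest in 786-O were SLC25A1/CLTCL1, COPE/DDX49, FAU/MRPL49, FRS3/PRICKLE4 and KLHL17/PLEKHN1, with signals of 59, 49, 40, 39 and 39. SLC25A1, whose pair points the same way over a gap at chr22:19178737-19179472, is the mitochondrial citrate carrier, COPE a coatomer subunit, and FAU a ribosomal protein fusion gene. Their ranks in 786-O ran from 83.64 to 95.13, so none lay among the strongest of gap peaks.
Among the 49 pairs of Caki-1, DMGDH/BHMT2 had a replicate 1 signal of 66 and a replicate 2 score of 266. These neighbouring genes encode dimethylglycine dehydrogenase and a homocysteine methyltransferase. The peaks were 1575 and 1625 bp wide, on a gap of 92 bp at chr5:79069675-79069766. Both peaks covered the 2 starts of this divergent pair. CCDC92/ZNF664 had a signal of 63 and a score of 265, DYRK1B/FBL, a kinase gene beside that of fibrillarin, 49 and 242, CAPN14/EHD3 45 and 254, and MCRIP1/PPP1R27 49 and 154. In both replicates DMGDH/BHMT2 ranked in the top 3% of its list, at 97.73 and 97.76, with no peak within 5 kb in 786-O.

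The promoters of close divergent pairs also differed from other promoters in sequence. In the RefSeq windows of 1377 genes in divergent pairs, the median ratio of observed to expected CpG was 0.882, against 0.772 for 13225 protein-coding promoters and 0.756 for 8229 lone starts. At lone starts the medians were 0.859 where all 3 libraries had a peak and 0.337 where none had. At divergent pairs the medians were 0.880 and 0.885. By ratio, shares were taken over 1 kb windows at the gap centre and not over gap peaks. The share marked in all 3 libraries was 6.67% of 15 divergent pairs at ratios below 0.4 and 69.2% at 0.4 to 0.6. It was 86.6% at 0.6 to 0.8, 81.7% at 0.8 to 1.0 and 71.8% above that. In the same bins lone starts had 5.04% of 2282, 29.3%, 52.4%, 59.2% and 58.7%. The part of CpG content in the difference between divergent pairs and lone starts was not tested.

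Motif letters, searched on both strands, were described in the same windows, and lone starts are given beside the divergent pairs. The ETS letters CCGGAAG were in 14.8% of all promoters, 29.5% of those in divergent pairs, 32.4% of those in divergent pairs marked in all 3 libraries and 15.1% of those marked in none. They were in 20.8% of lone starts marked in all 3 libraries and 3.75% of those marked in none. CCAAT was in 36.8%, 43.5%, 47.9% and 25.4%, in the same order, and in 39.0% and 35.2% of marked and unmarked lone starts. The GC box GGGCGG was in 58.9%, 73.0%, 73.6% and 65.9%, and in 73.8% and 36.2% of marked and unmarked lone starts. The NRF1 letters GCGCATGCG were in 2.92%, 6.10%, 6.95% and 3.97% of the first 4 sets, and in 4.48% and 0.745% of marked and unmarked lone starts. The YY1 letters AAGATGGCG were in 2.93%, 5.66% and 6.67%, and in 0 of 126 promoters of unmarked pairs, which allows a share of up to 2.89% by the exact interval. Marked and unmarked lone starts had the YY1 letters in 4.66% and 0.566%. The TATA letters TATAAA went the other way, with 10.1%, 3.49%, 2.95% and 6.35%, and with 5.08% and 18.6% of marked and unmarked lone starts. Shares for the ZNF143 letters ACTACAATT were 0.499% of all promoters, 1.31% of divergent ones and 0.389% of all lone starts. In the same order they were 8.85%, 11.3% and 8.07% for the E box CACGTG, and 2.76%, 3.63% and 2.70% for the CRE TGACGTCA. None of these motifs contains another. The windows of a narrow pair share bases, so that 1 match can count for both genes, and a match is no measure of binding.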

How the data were processed

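H4K12la CUT&Tag peak lists of 3 libraries were used as the authors deposited them, 1 list per library. Per the submitters' processing notes, fastp 0.19.6, Bowtie2 and deepTools were among the tools and hg38 (GRCh38) was the build. How peaks were called, from what depth and against what control is not stated in the sources used here, so intervals cover counting error only. The files have no headers. Start, end and width, and a summit position in 786-O and Caki-1 replicate 1, were read from the values. The last column, deposited by the authors without a description, was read as a signal in those libraries and as a score in Caki-1 replicate 2, where the position column was not used because it mostly lies outside the peak. It was turned into a percentile rank within its list.

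Genes came from RefSeq on GRCh38.p14 (19126 protein-coding genes on chromosomes 1 to 22), and strands and sequences from its promoter table, which covered 15101 of them. Pairs in which another protein-coding gene spans the gap were left out. Where a gap held 2 peaks the stronger was used. A promoter window was used where its start lay within 100 bp of the annotated gene end. Shares carry 95% exact (Clopper-Pearson) intervals. Python 3.11.15, pandas 2.3.3 and scipy 1.17.1 were used, and the pairing and overlap steps were tested on simulated data. The members, gene lists and motifs were chosen with earlier results of these data known.

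Pairs are named by rule: the 10 highest by lowest rank over the libraries, the 5 highest of each line-only set, the 3 highest further pairs per orientation, the widest peaks, the pairs at the gap limit, and, of 14 gene lists, the 3 highest and up to 3 without a peak. MOV10/RHOC, COL4A4/COL4A3, SURF1/SURF2, NPAT/ATM, TAP1/PSMB9 and UBQLN4/LAMTOR2 were named to complete a short count or a list, after their values were seen. The other 786-O replicate is not analysed here. A marker gene and a pair of the textbook list are not reported here.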

Additional observations from a re-analysis of the deposited data

How the results depend on the processing

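12 results were recomputed under the alternatives, giving 80 values: the counts of marked and of line-only pairs, the median ranks of gap peaks and the shares by orientation. The other values were not recomputed. The order of the shares by orientation was kept in each setting. Those for the shares by orientation were added after seeing the data. Counts of pairs marked per library and in all 3 kept within 1.5 times of the reported value throughout; with 1 Caki-1 replicate left out, 911 and 930 pairs were marked in the remaining libraries instead of 883. The counts of line-only pairs were the least stable. The 22 pairs of 786-O became 51 with only peaks above the median of their list, 14 with gaps up to 500 bp, 37 with gaps up to 2000 bp and 60 with no distance guard, and 44 and 63 without Caki-1 replicate 1 and 2. The 49 pairs of Caki-1 became 32 where the peak had to cover at least 50% of the gap and 93 with no distance guard, and 72 and 63 without replicate 1 and 2. With peaks above the median the Caki-1 count was also 51, and without replicate 2 both counts were 63, so the difference between 22 and 49 was absent under these settings. Median ranks moved to 91.6, 88.5 and 89.6 where the peak had to cover at least 50% of the gap, and by width instead of strength to 84.2, 80.9 and 81.7, in 786-O and Caki-1 replicates 1 and 2; in replicate 1 the median was 87.7 with gaps up to 500 bp, and in the replicates 85.7 and 86.2 with gaps up to 2000 bp. The divergent share marked in all 3 libraries, 75.4%, was 71.4% with the cover rule, 70.5% with only peaks above the median of their list, 78.9% in 1 kb windows, and 76.5% to 78.5% with 1 Caki-1 replicate left out. With the cover rule the same-direction share was 17.0% instead of 31.0% and the convergent share 0.299% instead of 1.19%; long gaps need long peaks to meet that rule. No paired analysis was possible because the lines share only replicate number 2. Depth is unknown and limits what the absence of a peak means.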

Other observations

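Non-coding and other genes also lie in some gaps. A gene of another biotype overlapped 136 of the 2023 gaps (6.72%), most often between genes pointing the same way, at 68 of 377 (18.0%). There, 27 of the 68 gaps (39.7%, 95% exact interval 28.0 to 52.3) had a gap peak in all 3 libraries, and 90 of the 309 gaps free of other genes (29.1%, 24.1 to 34.5). Divergent pairs had 17 of 24 (70.8%, 48.9 to 87.4) and 547 of 724 (75.6%, 72.3 to 78.6). The intervals overlap within each orientation.

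Divergent pairs without a gap peak in any library numbered 73. Their promoter windows had a median G+C content of 68.2%, against 64.7% for divergent pairs marked in all 3 libraries, so the unmarked windows were not poorer in G+C. Unmarked lone starts had a median of 54.0% and marked ones 65.7%.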
